A study of Mus musculus with 4 samples.

Results

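Mitochondrial ribosomal proteins are the nuclear-encoded protein subunits of the ribosome inside mitochondria, named Mrpl for the large and Mrps for the small subunit. The genes described here were those whose probe sets carried a single symbol beginning with Mrpl or Mrps and a digit, averaged per gene, with a mean log2 signal of 7 or more over the 4 arrays. The rule found 71 of the 76 such genes on the array, among 9279 genes above the same floor. They were read by 137 probe sets, and 47 of them belonged to the large subunit and 23 to the small one. The remaining gene, Mrps36, keeps its ribosomal symbol but is now known as Kgd4, a component of the ketoglutarate dehydrogenase complex.

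The study profiled type II alveolar epithelial cells (AEC2), the cells that make surfactant and renew the alveolar lining, sorted by flow cytometry from mouse lungs. Wild-type mice and mice lacking Tlr4, a receptor of innate immunity, were either left untreated or given bleomycin, which damages the lung lining, and taken 4 days later. Each of the 4 combinations had 1 array, hybridised with RNA from cells of 4 to 5 mice combined, so no group had a spread between replicates. The sources used here did not give the Tlr4 allele, strain, age, sex, bleomycin dose or sort markers.

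The mitochondrial ribosome translates the few messages of the mitochondrial genome, all of which code for core subunits of the respiratory chain complexes and the ATP synthase. It descends from a bacterial ribosome. Some of its proteins have bacterial counterparts, and others were added during the evolution of mitochondria. All its proteins are made in the cytosol and imported, while its RNA is transcribed inside the organelle. Its genes are expressed in every nucleated cell type, and AEC2 are rich in mitochondria.

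Values are log2 signals as deposited, so a difference of 1 is a 2-fold difference. The arrays had nearly equal medians over all probe sets, between 6.93 and 6.98. The summed signal of the 11 AEC2 markers was 16.63, 16.63, 16.60 and 16.51 (log2 of the sum). These are the untreated arrays of wild-type and Tlr4-/- cells and then the day 4 arrays of each, in that order. By the limma test for bleomycin described below 0 of the 11 passed, with 2 lower at an unadjusted p under 0.05. Single markers leaned downwards: 7 of 11 were lower at day 4 in both genotypes and 1 higher in both, against 27.7% and 38.8% of all genes. At day 4, 0 of 11 were higher in Tlr4-/- than in wild-type cells, with a median of -0.13, where 53.2% of all genes were. Of the 4 Tlr4 probe sets, one read 8.87 and 9.07 in the wild-type arrays against 7.24 and 6.39 in the Tlr4-/- arrays. Another pair read higher in the Tlr4-/- arrays, and the last was dim on all 4, at most 4.05. No source used here places these probe sets relative to the deleted part, so they check the labels only in part.

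Markers of other cells moved between the arrays. Of 14 leukocyte and macrophage markers 12 were above the floor, and 11 of those rose after bleomycin. The same number rose from the brightest probe sets. Their summed signal was 11.58 and 11.60 on the untreated arrays and 12.91 and 13.28 at day 4. The 3 mesothelial markers above the floor (of 5) rose as well (1 from the brightest probe sets), with sums of 9.81, 8.53, 10.74 and 10.41 in the order above. The sum of the 7 club cell markers was lowest on the Tlr4-/- untreated array, at 14.02 against 14.49 to 14.87 on the others. Of 6 ciliated cell markers 3 were above the floor and 2 fell (0 from the brightest probe sets), and of 5 fibroblast markers 2 were above it and 1 rose (3 of 4), while 0 of 6 endothelial markers reached it. The Y-linked gene Eif2s3y was higher at day 4 than in untreated cells by 2.04 (wild type) and 2.01 (knockout), and the difference of Xist was -0.62 and -1.27. The part of these changes in the results below was not tested. In sorted bulk cells, fewer cells of a type and less RNA per cell cannot be told apart.

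The signals of the mitochondrial ribosomal protein genes ran from 6.66 to 10.51 on the wild-type untreated array and from 7.24 to 11.11 on the Tlr4-/- day 4 array. The highest mean belonged to Mrpl32, a large-subunit protein that is cleaved by a mitochondrial protease before it joins the ribosome, with 10.51, 10.80, 10.83 and 11.11. Mrps18c followed with 10.47, 10.63, 10.79 and 10.87, and then Mrps28 with 10.35, 10.51, 10.62 and 10.72, both of them small-subunit proteins. These values are probe set signals and give no order of transcript number between genes. Each of these 3 genes was read by 1 probe set. Brighter probe sets of Mrpl52 and Mrpl51, with means of 12.83 and 11.43, were averaged with dim ones. Mrpl32, Mrps18c and Mrps28 were all lowest on the wild-type untreated array and highest on the Tlr4-/- day 4 array.

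At the floor itself, the genes just inside were Mrpl27 with a mean of 7.04, Mrpl45 and Mrpl35 with 7.13 each, and Mrpl42 with 7.14. Mrpl54, at 6.99, and Mrps5, at 6.89, lay just outside, with Mrps11 at 6.87, Mrps26 at 6.86 and Mrpl15 at 6.79. The means of these genes outside the floor take in dim probe sets. Their brightest probe sets had means of 8.21, 8.39, 8.45, 9.09 and 8.82, in that order. Inside the floor, Mrpl42 averaged probe sets with means of 10.70 and 3.58. Of the 78 protein-coding genes of this naming in RefSeq, Mrpl30 and Mrpl53 were read here by probe sets with several symbols and were not used.

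The members shared a small shift in the order of the arrays. Their median signal was 8.32 on the wild-type untreated array, 8.63 on the Tlr4-/- untreated array, 8.65 on the wild-type day 4 array and 8.82 on the Tlr4-/- day 4 array. Over all 9279 genes the medians were 8.32, 8.42, 8.43 and 8.48. Measured against each gene's own mean, the members' medians were -0.25, 0.00, 0.04 and 0.22, and those of all genes -0.06, 0.02, 0.01 and 0.03. The wild-type untreated array was thus the low one for these genes and the Tlr4-/- day 4 array the high one, with the other 2 nearly level.

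**Figure D1:**
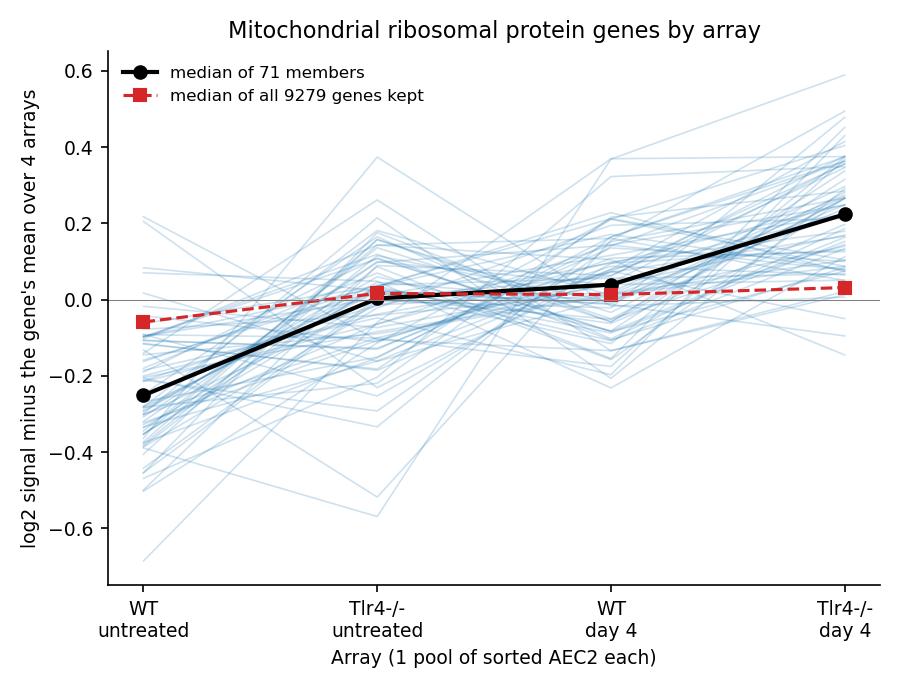
Log2 signal of each of the 71 mitochondrial ribosomal protein genes minus its own mean over the 4 arrays (vertical axis), by array (horizontal axis; 1 pool each). Thin lines are genes, black points their median and red squares the median of all 9279 genes kept. The black line runs from -0.25 on the wild-type untreated array to 0.22 on the Tlr4-/- day 4 array, while the red line stays between -0.06 and 0.03.

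Of the 71 genes, 50 (70.4%) had their lowest signal on the wild-type untreated array, against a background of 40% of all genes kept. The highest signal lay on the Tlr4-/- day 4 array for 54 (76.1%), against 33.6%. After quantile normalization of the 4 arrays these counts were 45 and 48, and the shares of all genes were 32.7% and 29.9%. The order was thus also seen with 1 intensity distribution imposed on all arrays.

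The first comparison was between bleomycin-treated and untreated cells. It asks how these genes differed 4 days into the injury. In wild-type cells 62 of 71 members were higher at day 4 than in untreated cells, against 59.5% of all genes, with a median difference of 0.29 (1.22-fold) against 0.07. In Tlr4-/- cells 62 were also higher, against 51.6% of all genes, with a median of 0.20 (1.15-fold) against 0.01. The counts include different genes: 55 members (77.5%) were higher in both genotypes, against 38.8% of all genes, and 2 were lower in both, against 27.7%. After quantile normalization the medians were 0.21 and 0.18, with 0.01 and -0.00 for all genes.

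The differences of single arrays were set against their spread. The spread between arrays, taken as the standard deviation that limma estimated over all genes for a difference of 2 arrays, was 0.23. It comes from how the genotypes' responses differed and does not measure variation between replicate pools, of which there were none. Of the members, 41 exceeded it upwards and 2 downwards in wild type, against 30.6% and 16% of all genes. In Tlr4-/- cells 33 exceeded it upwards and 3 downwards, against 26.8% and 23.1%. At 1.5-fold, 4 members were higher in wild type and 4 in Tlr4-/- cells, against 8.42% and 7.99% of all genes. With the brightest probe set standing for each gene, the wild-type count was 14 of 76 (18.4%), against 10.3% of all genes, so its side of the background turned with the averaging. The Tlr4-/- count was then 6 of 76 (7.89%), against 9.99%, and stayed below the background. None of the 71 was 1.5-fold lower in either genotype, where 2.72% and 5.07% of all genes were, while from the brightest probe sets 1 and 3 of 76 were, against 3.25% and 6.2%. At 2-fold, Mrpl16 was higher in wild type and Mrpl11 and Mrpl46 in Tlr4-/- cells, against 2.52% and 2.46% of all genes. Both day 4 arrays lay above both untreated arrays for 35 members (49.3%), against 30.4% of all genes, and below them for 1, against 21.7%.

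**Figure D2:**
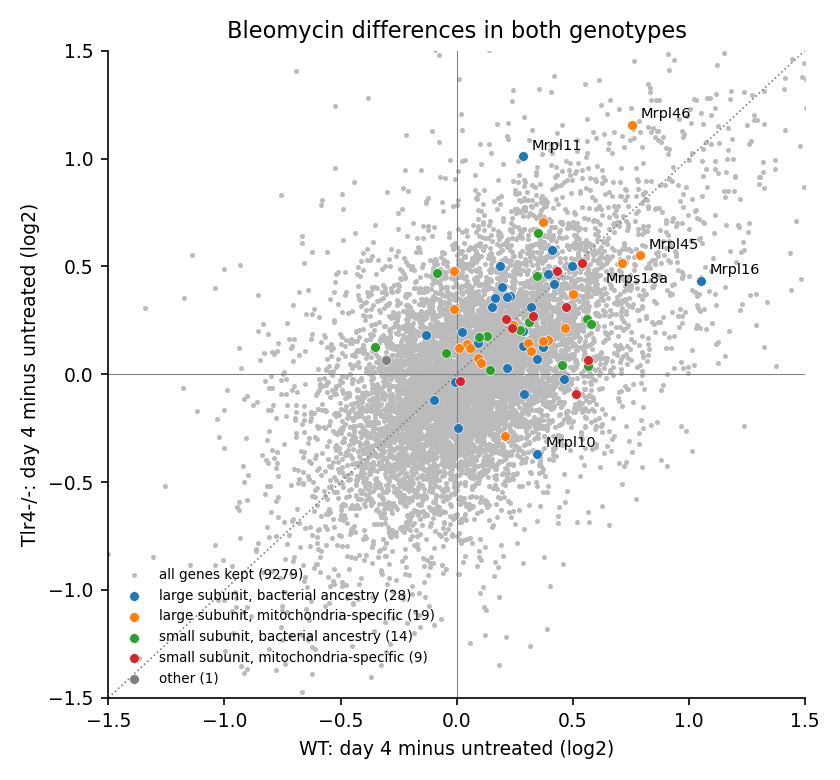
Log2 difference between day 4 after bleomycin and untreated in wild type (horizontal axis) and Tlr4-/- (vertical axis), 1 array per group. Grey points are all genes kept, of which 122 lie outside the axes, and coloured points are the 71 mitochondrial ribosomal protein genes by subunit and ancestry. Of the coloured points 55 lie in the upper right and 2 in the lower left, and Mrpl10 is labelled in the lower right.

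The bleomycin effect averaged over both genotypes was tested with limma in an additive model with genotype, with 1 residual degree of freedom and Benjamini-Hochberg adjustment over all 9279 genes. By this test 4 members rose and 0 fell, or 5.63% and 0%, where 6.54% and 2.19% of all genes did. The share that rose was near the background and is no result about the members. At an unadjusted p under 0.05, 18 members (25.4%) were higher and 0 lower, against 15.6% and 8.04% of all genes. The 4 were Mrpl46, Mrpl16, Mrpl45 and Mrps18a, all of them proteins of the large subunit, and each was read by 1 probe set.

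The sequences before the starts of these 4 genes are given to show what lies upstream of the members that passed the test. They are RefSeq sequences on GRCm38.p6, 5′ to 3′ in the direction of the gene, ending at the base before its annotated start. The capitals mark exact matches, on either strand, to the letters searched, which are spelled out further on. Mrpl46 shares a short interval with Mrps11, which starts in the opposite direction 42 bases away, and the whole interval is printed.
Mrpl46, chr7:78783090-78783130, minus strand, SP1 letters in capitals: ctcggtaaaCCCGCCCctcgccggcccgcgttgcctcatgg
Mrpl16, chr19:11770295-11770414, plus strand, TATA box letters in capitals: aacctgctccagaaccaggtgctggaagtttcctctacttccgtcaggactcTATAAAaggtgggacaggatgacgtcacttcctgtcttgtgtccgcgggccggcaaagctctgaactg
Mrpl45, chr11:97315596-97315715, plus strand, NRF1 letters in capitals: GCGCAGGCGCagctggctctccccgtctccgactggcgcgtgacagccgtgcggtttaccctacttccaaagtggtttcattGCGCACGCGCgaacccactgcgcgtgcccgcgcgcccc
Mrps18a, chr17:46110884-46111003, plus strand, ETS letters in capitals: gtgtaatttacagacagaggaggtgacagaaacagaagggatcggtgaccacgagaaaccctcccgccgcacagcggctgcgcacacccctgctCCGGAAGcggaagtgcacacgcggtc
The 4 stretches hold different letters: no motif searched was marked in more than 1 of them.

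Mrpl46 is a protein of the central protuberance, the crest of the large subunit that faces the small one. Its signal was 8.44 in wild-type untreated, 8.26 in Tlr4-/- untreated, 9.20 in wild-type day 4 and 9.42 in Tlr4-/- day 4 cells. Both day 4 arrays were above both untreated ones, with differences of 0.76 and 1.16. The average was 0.96 ± 0.16 (SE; 1.94-fold; limma, adjusted p = 0.00460). Mrps11, its head-to-head neighbour and a protein of the small subunit, was just below the floor at 6.53, 6.74, 6.88 and 7.35 and so was not tested. It was higher at day 4 by 0.35 and 0.61, in the same order of arrays except that Mrpl46 was lowest on the Tlr4-/- untreated array.

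Mrpl16, the counterpart of a bacterial protein near the site of peptide bond formation, read 9.48, 10.10, 10.53 and 10.54 in the order above. The wild-type untreated array stood apart from the other 3, so the bleomycin difference was 1.05 in wild type and 0.43 in Tlr4-/-. The average was 0.74 ± 0.18 (SE; limma, adjusted p = 0.0276). Mrpl45, which anchors the ribosome to the inner membrane beside the exit of the new peptide, read 6.66, 6.93, 7.46 and 7.48. Its differences were 0.79 and 0.55, with an average of 0.67 ± 0.16 (SE; limma, adjusted p = 0.0239). Both groups were separate for these 2 genes, and Mrpl45 was dim.

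Mrps18a belongs to a family of 3 paralogs of bacterial S18, which sit at different places in the mitochondrial ribosome. Mrps18a, whose protein was found in the large subunit despite its name, read 8.61, 8.99, 9.32 and 9.51, with an average of 0.62 ± 0.16 (SE; limma, adjusted p = 0.0342). Mrps18b, in the small subunit, read 9.28, 9.50, 9.82 and 10.02, and its average of 0.53 ± 0.15 (SE) missed the threshold (limma, adjusted p = 0.0562). Mrps18c, which takes the place of bacterial S18, read 10.47, 10.63, 10.79 and 10.87, with an average of 0.28 ± 0.15 (SE; limma, adjusted p = 0.309). All 3 paralogs had the same order of arrays, with both day 4 arrays above both untreated ones. The differences between paralogs were not tested, and the brightest had the smallest average.

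Other members with large averages did not pass the test, and that of Mrpl11 was above that of Mrps18a. Mrpl11, a protein at the base of the stalk that receives translation factors, read 8.32, 7.93, 8.61 and 8.94, an average of 0.65 ± 0.19 (SE; limma, adjusted p = 0.0567). Its difference was 0.29 in wild type and 1.01 in Tlr4-/-. Mrpl51, a mitochondria-specific protein, read 8.08, 7.95, 8.45 and 8.66, an average of 0.54 ± 0.16 (SE; limma, adjusted p = 0.0635). In both of these the Tlr4-/- untreated array was the low one, unlike in most members. For Mrpl51 this came from 1 dim probe set, with a mean of 6.83. Its brightest probe set read 11.20, 11.24, 11.54 and 11.73, lowest on the wild-type untreated array.

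At the other end, 2 members were lower at day 4 in both genotypes, by less than the spread between arrays. Mrpl47, the counterpart of a bacterial protein at the exit tunnel, read 7.66, 7.60, 7.57 and 7.48. Mrpl3, the counterpart of a core bacterial protein, read 7.60, 7.81, 7.59 and 7.78. Both averages (-0.11 and -0.02) turned positive when the brightest probe set stood for the gene, at 0.10 and 0.01. Among members that were higher in both genotypes, the smallest averages belonged to Mrpl37, Mrps12, Mrpl44 and Mrpl58, between 0.07 and 0.08. Mrps12 is the counterpart of the bacterial protein that contacts the decoding site, and Mrpl58 is a peptidyl-tRNA hydrolase that frees stalled ribosomes. Mrpl37 read 8.13, 8.65, 8.23 and 8.72, so its arrays grouped by genotype rather than by treatment.

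**Figure D3:**
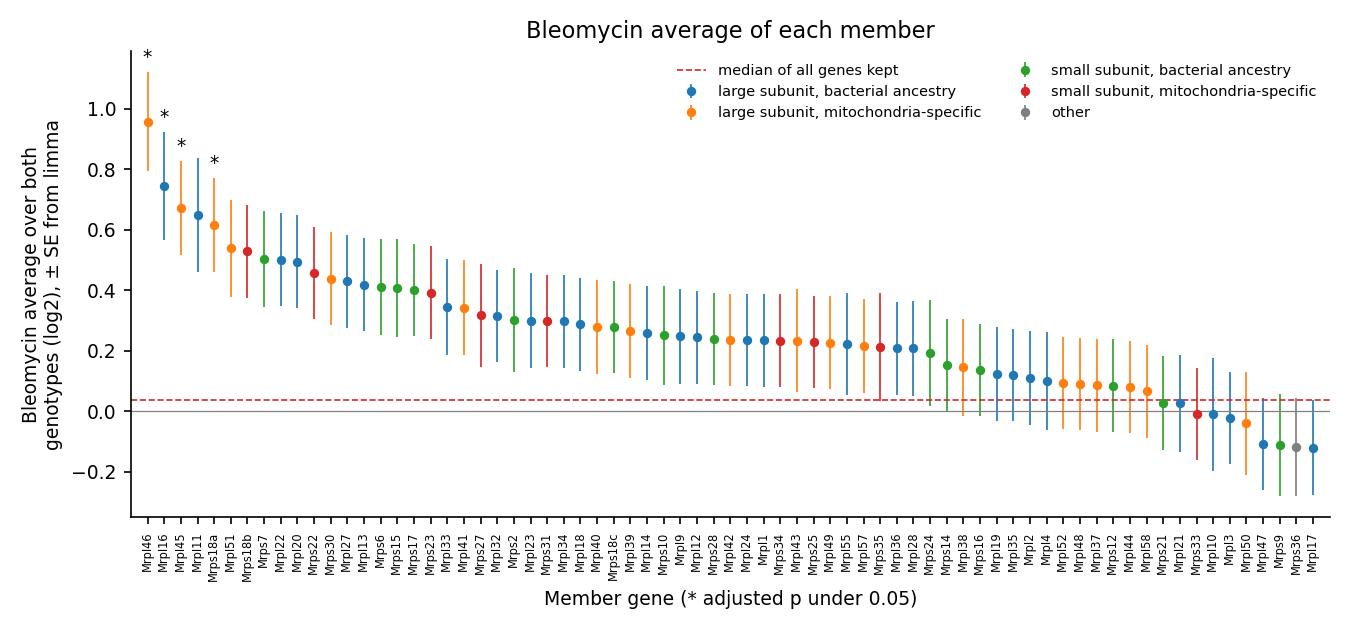
Bleomycin average over both genotypes (log2, vertical axis) of the 71 mitochondrial ribosomal protein genes in falling order (horizontal axis), with bars for the standard error from limma and colours for subunit and ancestry. Asterisks mark the 4 genes with an adjusted p under 0.05, which lie at 0.96, 0.74, 0.67 and 0.62, and the dashed line is the median of all genes kept, 0.04.

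Subunit and ancestry did not separate the members clearly. The 28 proteins of the large subunit with a bacterial counterpart had median bleomycin differences of 0.26 in wild type and 0.23 in Tlr4-/-, with 1 that rose. The 19 mitochondria-specific ones had 0.31 and 0.16, with 3 that rose. In the small subunit, the 14 of bacterial ancestry had 0.29 and 0.19 and the 9 mitochondria-specific ones 0.43 and 0.26, with 0 that rose by limma in either and 4 and 3 higher at an unadjusted p under 0.05. All 8 medians were above those of all genes, 0.07 and 0.01, and 6.54% of all genes rose. The differences between these classes were not tested.

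Within the large subunit, 3 regions were listed by function. The 7 proteins of the central protuberance had medians of 0.22 and 0.30, and Mrpl46 was the 1 that rose. The 6 at the exit of the peptide tunnel had 0.21 and 0.33, and Mrpl45 was the 1 that rose. Of 4 stalk proteins 3 were above the floor, and 0 rose by limma, with 1 higher at an unadjusted p under 0.05. The stalk protein Mrpl12, which also binds the mitochondrial RNA polymerase, read 9.52, 9.85, 9.80 and 10.06.

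At like brightness the members' medians were also above those of other genes. Among genes with a mean between 8 and 9, the 28 members had medians of 0.33 in wild type and 0.18 in Tlr4-/-, against 0.08 and 0.02 for all 2891 genes there. Between 10 and 11 the 15 members had 0.22 and 0.25, against 0.09 and 0.03 for 820 genes.

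Probe sets of 1 gene did not always tell the same story. Of the 71 members, 34 had 1 probe set and 27 had several above the floor. Of those 27, 11 had probe sets with opposite signs of the bleomycin average, and in 2, Mrpl19 and Mrpl50, they differed beyond the spread on both sides of 0. The brightest Mrpl19 probe set read 10.64, 10.51, 9.88 and 9.57, lower at day 4, and another read 7.15, 7.85, 7.96 and 8.10. For Mrpl50 the averages of the 2 probe sets were -0.38 and 0.30. In Mrpl44, Mrps14, Mrps15 and Mrps25 the disagreement of this size concerned the genotype instead. A mean over such probe sets hides these differences, and no source used here says which transcripts each probe set reads.

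The second comparison was between Tlr4-/- and wild-type cells, which asks how the genes differed without the receptor, before and after injury. In untreated cells 54 of 71 members were higher in Tlr4-/-, against 62.1% of all genes, with a median of 0.22 against 0.08. At day 4, 60 were higher, against 53.2%, with a median of 0.19 against 0.02. Both treatments gave the higher value to Tlr4-/- for 48 members (67.6%), against 35.2% of all genes, and the lower one for 5, against 20%. After quantile normalization the medians were 0.17 and 0.17, with 0.03 and 0.00 for all genes. The untreated comparison shares its wild-type array with the wild-type bleomycin difference, and the day 4 comparison shares its Tlr4-/- array with the Tlr4-/- bleomycin difference, so these are not separate observations.

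By limma 0 members and 0 of all 9279 genes passed for genotype, and the smallest adjusted p was 0.347 among members and 0.219 among all genes. At an unadjusted p under 0.05, 14 members were higher in Tlr4-/- and 0 lower, against 7.08% and 1.74% of all genes. Past 1.5-fold, 4 members were higher in untreated Tlr4-/- cells and 2 at day 4, against 5.54% and 1.51%, and 0 were lower, against 1.93% and 0.604%. From the brightest probe sets the untreated count was 12 of 76 (15.8%), against 7.97%. None was 2-fold higher, against 0.776% and 0.0431%. Past the spread between arrays, 34 were higher and 3 lower when untreated, against 29.6% and 12.7%, and 29 higher and 1 lower at day 4, against 17.6% and 11.7%. Both Tlr4-/- arrays lay above both wild-type arrays for 27 members, against 17.1% of all genes, and below for 1, against 9.34%.

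The members with the largest differences in untreated cells were Mrpl10, Mrpl40, Mrpl16 and Mrps6, higher in Tlr4-/- by 0.74, 0.63, 0.63 and 0.59. Mrpl40, of the central protuberance, read 7.99, 8.62, 8.39 and 8.79 in the order above. Mrps6, whose bacterial counterpart pairs with S18, read 9.52, 10.11, 10.08 and 10.36. For both, the wild-type untreated array was the low one, and both Tlr4-/- arrays lay above both wild-type arrays. In Mrps6 the other 3 arrays lay closer together.

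Lower in untreated Tlr4-/- cells were Mrpl21, Mrpl11, Mrps9 and Mrpl46, with differences of -0.44, -0.39, -0.32 and -0.18. Mrpl21 read 8.32, 7.89, 8.19 and 8.07, and Mrps9 read 9.10, 8.78, 8.75 and 8.90. From the brightest probe set alone, the differences of Mrpl21 and Mrps9 were 0.07 and 0.05, so their direction rested on the averaging.

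At day 4 the largest differences belonged to Mrpl43, Mrpl34, Mrps24 and Mrps22, higher in Tlr4-/- by 0.63, 0.61, 0.54 and 0.50. Mrpl43 read 9.28, 9.41, 9.26 and 9.89, and Mrps24 9.99, 9.99, 9.91 and 10.45, so in both the Tlr4-/- day 4 array stood above 3 nearly level ones. Mrpl34, a short protein with a bacterial counterpart, read 8.83, 9.30, 9.06 and 9.66, and Mrps22, a mitochondria-specific protein, 7.81, 8.26, 8.24 and 8.74. Lower in Tlr4-/- at day 4 were Mrpl50, Mrps2, Mrpl21 and Mrps31, with differences of -0.25, -0.15, -0.12 and -0.12. Of these only that of Mrpl50 exceeded the spread of 0.23 between arrays. From the brightest probe set alone they were -0.23, 0.02, 0.06 and -0.01, so the direction of Mrps2 and Mrpl21 rested on the averaging.

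The difference between the responses, Tlr4-/- minus wild type, had a median of -0.02 over the members and -0.07 over all genes. With 1 array per group it has no test. Past 1.5-fold, 1 member was higher and 3 lower, against 4.05% and 6.56% of all genes, and none was past 2-fold, against 0.668% and 0.862%. Mrpl11 had the highest value, 0.72, followed by Mrps24 with 0.55, Mrpl43 with 0.49 and Mrps9 with 0.48. The lowest were Mrpl10 with -0.71, Mrpl16 with -0.62, Mrps35 with -0.61 and Mrps2 with -0.52. Mrps35 read 8.13, 8.63, 8.65 and 8.54 and Mrps2 read 8.19, 8.56, 8.75 and 8.60, each lowest on the wild-type untreated array. The values of Mrps9 and Mrps2 rested largely on 1 probe set each. Its bleomycin differences in wild type and Tlr4-/- were -0.98 and 0.66 for Mrps9 and 0.89 and -0.02 for Mrps2. The brightest probe sets gave -0.19 and 0.09 for Mrps9, and 0.24 and 0.10 for Mrps2.

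Other genes of mitochondrial protein synthesis were counted in the same way, and no list was tested against the members. The 4 mitochondrial ribosome subunits with other names (Chchd1, Dap3, Gadd45gip1 and Ptcd3) held 0 that passed limma's test for bleomycin, and 1 was higher at an unadjusted p under 0.05. The medians of these 4 were 0.15 in wild type and 0.03 in Tlr4-/-, the latter -0.09 from the brightest probe sets. Of the 4, 2 were higher in both genotypes, against 38.8% of all genes. Chchd1 read 9.83, 10.03, 10.14 and 10.45, with the same lowest and highest arrays as most members. Dap3, a small-subunit GTPase, read 8.53, 9.05, 8.84 and 8.95. Of 11 translation factors 7 were above the floor and 0 passed (limma; 0 higher and 1 lower at an unadjusted p under 0.05), with medians of 0.07 in wild type and -0.16 in Tlr4-/-, the latter 0.10 from the brightest probe sets. Of 19 mitochondrial aminoacyl-tRNA synthetases 10 were above the floor and 0 passed (limma; 2 higher and 0 lower at an unadjusted p under 0.05), with medians of 0.19 and 0.02, and of 0.0015 and -0.0016 from the brightest probe sets.

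Among 27 assembly factors of the mitochondrial ribosome, 22 were above the floor, with medians of 0.09 and 0.09. Of the 22, 2 rose and 1 fell, against 6.54% and 2.19% of all genes. From the brightest probe sets 0 rose and 0 fell, and the wild-type median was 0.25. Trub2, a pseudouridine synthase of mitochondrial RNA, rose by 0.67 ± 0.17 (SE; limma, adjusted p = 0.0317) and C1qbp, a matrix protein needed for mitochondrial translation, by 0.60 (limma, adjusted p = 0.0372). Ybey, an endoribonuclease, fell by 0.82 (limma, adjusted p = 0.0102). Of 14 genes of mitochondrial DNA transcription and maintenance 9 were above the floor, and 1 fell: Polg2, the accessory subunit of the mitochondrial DNA polymerase, at 9.88, 9.36, 8.91 and 8.47, by 0.93 (limma, adjusted p = 0.00360).

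Genes of protein import and the respiratory chain were also listed. Of all genes 6.54% rose, 2.19% fell and 38.8% were higher in both genotypes. Of 22 import genes 19 were above the floor, 17 were higher in both genotypes and 3 rose, with medians of 0.23 and 0.28. Those 3 were Timm17a (average 0.72), a channel subunit of the inner membrane, Timm10 (0.63), a chaperone of the space between the membranes, and Grpel1 (0.57), a cochaperone of the import motor. Of 33 complex I genes 32 were above the floor and 3 rose, with medians of 0.20 and 0.27. Of 36 genes of complexes II to V 34 were above it and 5 rose, with medians of 0.19 and 0.32. Sdhb, an iron-sulphur subunit of complex II, rose by 0.86 (limma, adjusted p = 0.00608). From the brightest probe sets 0 import genes, 0 of complex I and 1 of complexes II to V rose, and after quantile normalization 2, 1 and 2. In all 3 lists 0 fell by limma, and 0 were lower at an unadjusted p under 0.05. Of 13 mitochondrial chaperones and proteases 1 rose, the prohibitin Phb2 (0.58), with 0 that fell. Its call was lost from the brightest probe sets, with median centring and after quantile normalization.

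The proteins of the cytosolic ribosome were listed for comparison. Of 46 on the array 41 were above the floor, with medians of -0.03 in wild type and 0.03 in Tlr4-/-. Of the 41, 12 were higher in both genotypes, against 38.8% of all genes. The 1 that rose was Rps27l, known as a target of p53, by 1.05 (limma, adjusted p = 0.00190). The mitochondrial and cytosolic lists were not tested against each other.

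**Figure D4:**
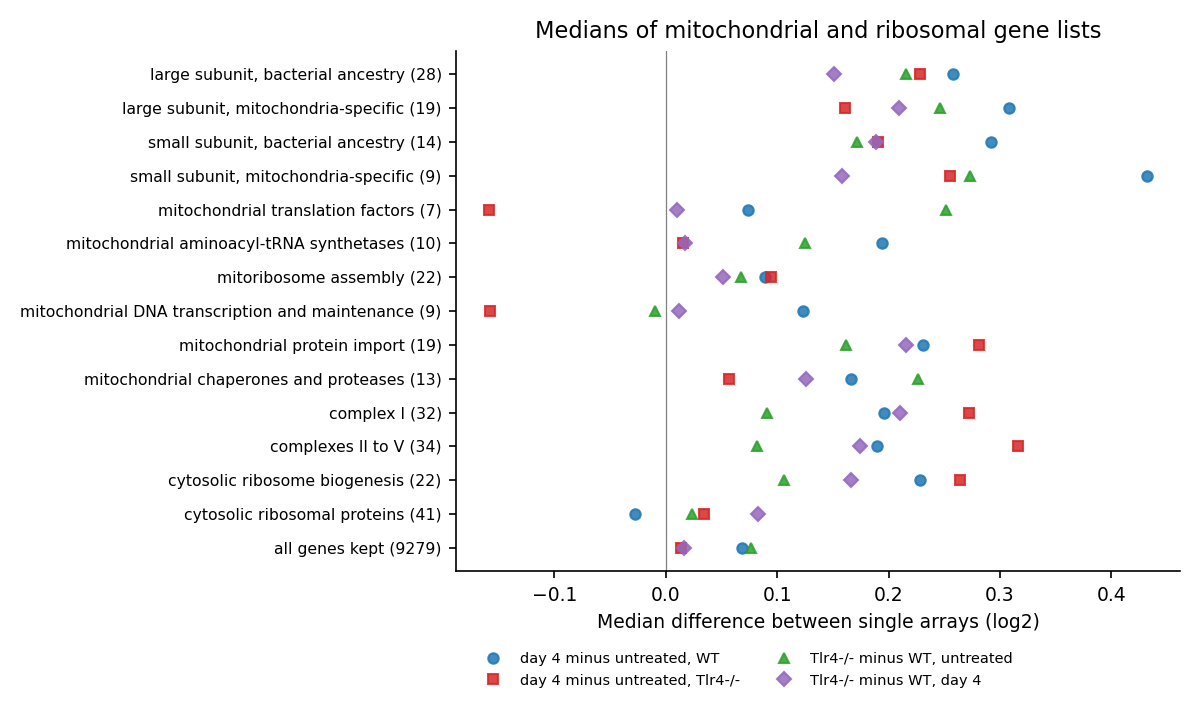
Median log2 difference between single arrays (horizontal axis) for lists of mitochondrial and ribosomal genes, with the number above the floor in brackets (vertical axis). Circles and squares are day 4 minus untreated in wild type and Tlr4-/-, and triangles and diamonds are Tlr4-/- minus wild type when untreated and at day 4. All 4 medians of each mitochondrial ribosome class lie between 0.15 and 0.43, while those of the cytosolic ribosomal proteins lie between -0.03 and 0.08 and those of all genes between 0.01 and 0.08.

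Sequences before the gene starts were matched for 64 of the 71 members and 7510 of all genes kept, each running from 250 bases before to 50 bases after the RefSeq start. Letters of 7 known promoter motifs were searched on both strands, with any overlap allowed. A match says only that the letters are there. CCGGAAG, the core bound by ETS factors such as GABP, which is known for its part in genes of mitochondrial proteins, was found in 23 members (35.9%) against 19.2% of all genes. AAGATGGCG, letters bound by YY1, was found in 7 (10.9%) against 3.52%, and the NRF1 motif in 11 (17.2%) against 11.3%. GGGCGGG (SP1) was found in 42.2% against 49.6%, CCAAT in 39.1% against 37.9%, CACGTG (E-box, bound by MYC among others) in 7.81% against 10.4%, and TATAAA in 6.25% against 7.11%. Members with the ETS letters had a median bleomycin average of 0.28 and those without 0.24. The 4 members with TATAAA were Mrpl16, Mrpl46, Mrps17 and Mrps24, and the letters of Mrpl46 lie outside the interval printed above.

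Many members start beside another gene. A start on the opposite strand, pointing away, lay within 1000 bases for 22 of 64 members (34.4%), against 19.5% of all genes, and within 300 bases for 18 (28.1%), against 15.4%. Members with such a neighbour had a median bleomycin average of 0.27 and those without 0.24. In the 15 pairs where the neighbour was above the floor too, the neighbours' median was 0.04 against 0.28 for the members, and 7 pairs had both genes higher. Of the 15 neighbours, 8 were higher at day 4 on average.

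The intervals between the starts of 3 such pairs are printed because member and neighbour differ in what they do or how they behaved. They are RefSeq sequences on GRCm38.p6 in the direction of the member.
Mrpl43 and Twnk, chr19:45006443-45006557, minus strand, ETS letters in capitals: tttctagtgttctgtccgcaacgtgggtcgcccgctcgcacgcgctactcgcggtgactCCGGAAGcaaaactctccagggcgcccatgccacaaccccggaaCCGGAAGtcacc
Mrps12 and Sars2, chr7:28741822-28741967, minus strand, SP1 and CCAAT letters in capitals: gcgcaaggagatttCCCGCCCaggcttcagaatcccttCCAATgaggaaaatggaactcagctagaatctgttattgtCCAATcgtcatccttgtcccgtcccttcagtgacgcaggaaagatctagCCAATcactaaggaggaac
Mrps18c and Helq, chr5:100798601-100798758, plus strand, ETS letters in capitals: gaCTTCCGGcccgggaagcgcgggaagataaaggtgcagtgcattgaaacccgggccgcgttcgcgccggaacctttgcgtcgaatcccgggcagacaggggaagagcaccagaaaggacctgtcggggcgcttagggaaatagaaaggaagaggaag
Twnk, the mitochondrial DNA helicase, was lower at day 4 by less than 1.5-fold, with differences of -0.29 and -0.23, where Mrpl43 had -0.01 and 0.48. Sars2, the mitochondrial seryl-tRNA synthetase, and Helq, a DNA helicase of the nucleus, were below the floor, with means of 6.73 and 6.60.

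The calls for single members depended on the settings. Mrpl46 passed under all 7 alternatives that used the 4 arrays, with limma adjusted p between 0.000276 and 0.0499. Mrpl16 and Mrps18a each passed under 3 of 7 and Mrpl45 under 3 of the 6 that kept it above the floor. With 1 array left out, treatment and genotype were fitted in separate models, and 1 side of each kept a single array. Which members passed for bleomycin then changed with the array left out, so only averages are given. Without the wild-type untreated array the members' median bleomycin average was 0.12, against 0.00 for all genes, and the genotype average 0.05, against 0.01. Without the Tlr4-/- day 4 array these medians were 0.14 and 0.09, against 0.03 and 0.04 for all genes. They were 0.36 and 0.31 without the Tlr4-/- untreated array, against 0.08 and 0.06. Without the wild-type day 4 array they were 0.34 and 0.35, against 0.05 and 0.08.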

How the data were processed

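AEC2 from 4 groups were measured on 1 Affymetrix 3' expression array each. Per the labels' protocols, RNA was extracted with Trizol and cDNA amplified and biotin labelled with commercial kits. The values deposited by the authors were read as log2 signals from their range. Software and normalization: not given in the sources used here. Detection calls were not used here, so no gene is called absent.

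Of 45101 probe sets, 34958 had 1 symbol in the platform annotation and 932 had several, which were left out. The Entrez identifier of 34754 was found in RefSeq. Averaging per gene gave 18194 genes, and 9279 had a mean of 7 or more. Differences between single arrays were not tested. The bleomycin and genotype averages were tested in an additive model on all 4 arrays by lmFit and eBayes of limma 3.58.1 (R 4.3.3), with trend and robust off, called at a Benjamini-Hochberg adjusted p under 0.05 over all 9279 genes. The prior had 9.89 degrees of freedom. Its spread of 0.23 and the standard errors come from how the genotypes' responses differed, since there were no replicate arrays. The step was tested on simulated data.

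The members, gene lists, motifs and rules were chosen with earlier results of these data known. Named members were those called, the 6 highest and 6 lowest bleomycin averages with 1 sign in both genotypes, the 4 highest and 4 lowest for each genotype difference and the response difference, the 3 brightest, those near the floor, those with conflicting probe sets, and the Mrps18 paralogs. From related lists up to 3 genes per comparison could be named. Mrpl12, Mrps11, Chchd1, Dap3, Tlr4 and the neighbours of members were named beyond that rule, after their values were seen. Promoter sequences came from RefSeq on GRCm38.p6. Protein features were not analysed here. Alternatives were the brightest probe set per gene, median centring, quantile normalization, other floors, trend with robust, a 2-fold threshold and leaving out each array.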

Additional observations from a re-analysis of the deposited data

Results flagged for a closer look

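Mrpl10, the protein that carries the stalk of the large subunit, moved in opposite directions after bleomycin. Its signal was 8.37 in wild-type untreated, 9.11 in Tlr4-/- untreated, 8.72 in wild-type day 4 and 8.74 in Tlr4-/- day 4 cells, from 1 probe set. The difference was 0.35 in wild type and -0.37 in Tlr4-/-, each larger than the spread of 0.23. That spread itself comes from such differences between the genotypes' responses. Both day 4 arrays were nearly level, and the untreated arrays lay on either side of them. The difference between the genotypes was not tested, since each group had 1 array. Opposite directions were not particular to Mrpl10: 7 members were higher in wild type and lower in Tlr4-/-, and 7 the reverse. Of all genes 38.8% were higher in both genotypes and 27.7% lower in both. The rest moved in opposite directions or not at all.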

How the results depend on the processing

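No paired analysis was possible because each group had 1 array. Of 71 members 4 rose after bleomycin as reported. With the brightest probe set per gene 1 of 76 rose, with median centring 1 of 71 and with quantile normalization 2 of 71. Without a floor 1 of 76 rose, and 9 of 54 with a floor of 8. With the floor at the median of all genes 5 of 70 rose, and with trend and robust 6 of 71. Over all genes the rises and falls were 607 and 203 of 9279 as reported, and 257 and 47 of 10600 with the brightest probe set. With median centring they were 349 and 85, and with quantile normalization 438 and 191 of 9281. Without a floor they were 319 and 48 of 18194, and 573 and 255 of 5933 with a floor of 8. They were 653 and 230 of 9097 with the floor at the median, and 676 and 249 with trend and robust. At a floor of 8 the members' share that rose was thus above that of all genes. No member passed for genotype under any alternative. With the brightest probe set, 76 members and 10600 genes were above the floor. The members past 1.5-fold higher were 14 for bleomycin in wild type (10.3% of all genes), 12 for genotype when untreated (7.97%) and 2 for the response difference (5.52%). Those past 1.5-fold lower were 1 (3.25%), 1 (2.89%) and 5 (9.21%), and 3 (6.2%) for bleomycin in Tlr4-/-. After quantile normalization the higher counts were 1 for genotype when untreated (4.46%), 1 at day 4 (1.31%) and 2 for the response (4.59%), whose lower count was 1 (5.74%). At 2-fold, 1 member was higher for bleomycin in wild type, 2 in Tlr4-/- and 0 for genotype when untreated, 0 at day 4 and 0 in either direction for the response. The members' medians kept their sign under all alternatives run, between 0.21 and 0.33 for bleomycin in wild type, 0.18 and 0.23 in Tlr4-/-, 0.17 and 0.28 for genotype when untreated and 0.17 and 0.22 at day 4, except the response, from -0.06 to 0.03. Averages of members near 0 turned sign: Mrpl3 to 0.013 and Mrpl47 to 0.10 with the brightest probe set. With 1 array left out Mrpl3 ran from -0.13 to 0.087, Mrpl37 from -0.17 to 0.34 and Mrpl44 from -0.069 to 0.23. Mrpl58 ran from -0.055 to 0.19, Mrps12 from -0.12 to 0.29 and Mrpl46 from 0.85 to 1.07. All calls, that of Mrpl46 among them, were lost without either day 4 array. The cause of these changes was not tested. The number of arrays limits the precision, and the dimmest members, such as Mrpl45, lie near the median signal of all genes, 7.05.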

Other observations

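Among 10 regulators of mitochondrial biogenesis, a list chosen with earlier results of these data known, 9 were above the floor. Of the 9, 2 rose after bleomycin and 0 fell, against 6.54% and 2.19% of all genes. With the brightest probe set per gene 0 rose, with median centring 1 and after quantile normalization 2. Myc, a transcription factor known to drive genes of ribosome production and growth, read 7.41, 8.58, 8.84 and 9.14 in untreated wild-type, untreated Tlr4-/-, wild-type day 4 and Tlr4-/- day 4 cells. It rose, with differences of 1.43 and 0.56 in the genotypes (SE of their average 0.20; limma, adjusted p = 0.0116). Its lowest and highest arrays were those of most mitochondrial ribosomal protein genes. The same arrays were the lowest for 40% and the highest for 33.6% of all genes. Any link between Myc and the members was not tested. Pprc1, a coactivator related to PGC-1alpha, read 7.99, 8.23, 8.89 and 8.93 and rose by 0.80 ± 0.16 (SE; limma, adjusted p = 0.00919). Nrf1, a factor of nuclear genes for mitochondrial proteins, read 7.93, 7.98, 7.97 and 7.95. The averages of Yy1 and of Gabpa, the ETS subunit of GABP, were -0.41 and -0.38 and did not pass the test (limma, adjusted p = 0.144 and 0.163).

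Of 26 genes for building cytosolic ribosomes 22 were above the floor, with medians of 0.23 in wild type and 0.26 in Tlr4-/-. Of the 22, 6 rose and 0 fell, against 6.54% and 2.19% of all genes. The 6 were Gnl3, a nucleolar GTPase, with an average of 0.98, Ftsj3 with 0.73, Fbl, the methyltransferase fibrillarin, with 0.71, Nop58 with 0.71, Utp4 with 0.60 and Nhp2 with 0.58. From the brightest probe sets 1 rose, with median centring 1 and after quantile normalization 2. The proteins of the cytosolic ribosome itself had medians of -0.03 and 0.03.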
